A study of Mus musculus with 9 samples.

Results

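The Cyp4f gene cluster and the Zfp955 pair lie on mouse chromosome 17, on the side of the Clic1 locus nearer the centromere. The members were the 6 genes Cyp4f13, Cyp4f14, Cyp4f15, Cyp4f16, Zfp955a and Zfp955b, taken by symbol from the 14351 genes of the deposited table, and each of the 6 had a row. They were selected on the difference in level between Clic1 knockout (KO) and wild-type (WT) mice in these same libraries, which was already known for Cyp4f14, Cyp4f16 and Zfp955b. Their KO and WT values are therefore given as a description, with no p-value, and the count of members past the threshold of the fit over all genes supports nothing.

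RNA of the hypothalamus was sequenced from 5 male Clic1 KO mice and 4 male WT mice, 1 library per mouse. According to the study's methods, the KO mice lacked Clic1 in the whole body on a CD-1 background, the WT mice were littermates and both were fed normal chow. The labels instead give the strain C57b/6J and, among their protocols, adipose tissue, and no age is given for these mice. The KO libraries were replicates 2, 4, 6, 8 and 10, and the WT libraries were replicates 1, 3, 9 and 11. Replicate 10 carried conflicting labels, since its title and treatment named it WT and its description carried the prefix of the KO libraries. It was placed with the KO mice by its description, and each member is given with and without it.

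Clic1, the targeted gene, had 0.733 to 1.93 CPM (TMM-normalized counts per 1 M reads) in the KO libraries and 3.58 to 5.52 CPM in the WT libraries, and replicate 10 had 1.43 CPM (p = 0.0159 over all 9, two-sided exact permutation test, the smallest this design allows). The reads behind each library, estimated from the steps between low values, came to 5.47 to 20.8 M in the KO mice, with a median of 7.56 M, and to 7.29 to 11 M in the WT mice, with a median of 9.81 M. Replicate 10 was the deepest. All 15 hypothalamic markers had a row, with a summed level of 831 to 1020 CPM in the KO mice against 764 to 820 CPM in the WT mice. Without Avp, the gene of vasopressin, the other 14 summed to 642 to 775 and 659 to 717 CPM. The part of this difference in the members' values was not tested. Summed markers of microglia, endothelium, astrocytes, oligodendrocytes, choroid plexus, ependymal cells, meninges, blood, pituitary and liver overlapped between the groups. The blood and liver lists were represented by 1 gene each, since the haemoglobin genes and Apoa1, Ttr and Cyp2e1 had no row. The choroid plexus list lacked Ttr and Folr1 and the pituitary list Gh and Prl, so each held 4 of its 6 genes. The meningeal sum varied widely, from 76.7 to 339 CPM in the KO and 90.3 to 190 CPM in the WT libraries.

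The CYP4F enzymes are cytochrome P450 monooxygenases of the endoplasmic reticulum that hydroxylate the far end of fatty acid chains. Their known substrates include leukotriene B4, other arachidonic acid products and, in some members, vitamin K, and they draw electrons from the reductase Por. Zfp955a and Zfp955b encode zinc-finger proteins. Many mammalian zinc-finger genes of this kind lie in clusters of young copies, and those whose proteins carry a KRAB domain recruit the corepressor Trim28 to DNA.

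In GRCm38 coordinates, Cyp4f16 (ENSMUSG00000048440) lay at chr17:32536558-32551798 and Cyp4f15 (ENSMUSG00000073424) at chr17:32685627-32703352, both on the plus strand. Cyp4f14 (ENSMUSG00000024292) lay at chr17:32905070-32917342 and Cyp4f13 (ENSMUSG00000024055) at chr17:32924688-32947402, both on the minus strand and 7.34 kb apart. Zfp955a (ENSMUSG00000094441) lay at chr17:33239718-33255145 on the minus strand and Zfp955b (ENSMUSG00000096910) at chr17:33289544-33307241 on the plus strand, 34.4 kb apart. The members spanned 770.7 kb, and Zfp955b was 1.74 Mb from Clic1. Each Cyp4f member had a coding sequence of 1569 to 1602 nt in its longest transcript, on 12 or 13 exons, and each Zfp955 gene had 1635 nt on 4 exons. Zfp955b overlaps the pseudogene Zfp422-ps on the opposite strand, and whether the counting used strand is not given in the sources used here.

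How alike the copies are can bear on their values, because the authors' counting divides reads that match several genes. The coding sequences of Zfp955a and Zfp955b were 98.2% identical, with 29 of 1635 bases different. The 4 Cyp4f members were far less alike, at 76.6% to 82.5% over their 6 pairs. Cyp4f16 had a closer relative outside the members in Cyp4f37, at 95.9% identity with 65 of 1572 bases different, and Cyp4f37 had no row in the table analysed here. The stretches of 120 coding bases below lie within 1 exon each and hold 13 differences per pair, and they are shown as the densest stretch of differences in each pair. The capitals mark the bases that differ within a pair. Zfp955a is at chr17:33241652-33241771 (minus strand, exon 4), Zfp955b at chr17:33302944-33303063 (plus strand, exon 4), Cyp4f16 at chr17:32540271-32540390 and Cyp4f37 at chr17:32625122-32625241 (plus strand, exon 3 of each).
Zfp955a: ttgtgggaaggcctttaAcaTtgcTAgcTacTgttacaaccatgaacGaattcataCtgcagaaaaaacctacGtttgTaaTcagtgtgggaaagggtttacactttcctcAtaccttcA
Zfp955b: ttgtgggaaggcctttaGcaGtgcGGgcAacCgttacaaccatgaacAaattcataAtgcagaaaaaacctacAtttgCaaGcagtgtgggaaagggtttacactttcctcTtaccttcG
Cyp4f16: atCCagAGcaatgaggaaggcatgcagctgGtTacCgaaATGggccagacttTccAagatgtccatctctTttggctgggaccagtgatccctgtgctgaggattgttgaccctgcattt
Cyp4f37: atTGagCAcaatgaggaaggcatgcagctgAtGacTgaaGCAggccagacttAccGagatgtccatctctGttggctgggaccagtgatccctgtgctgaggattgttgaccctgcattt

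Across the longest transcript of each member, the share of 75-base windows found letter for letter in another gene was 37.1% for Zfp955a, 22.6% for Zfp955b and 16.1% for Cyp4f16. It was 0.186% for Cyp4f14, 0.191% for Cyp4f15 and 0% for Cyp4f13. Zfp955a and Zfp955b shared windows with each other only, and Cyp4f16 shared 14.9% of its windows with Cyp4f37. For the 4 Cyp4f genes, 36 of 36 values were whole numbers of reads within 0.03 reads, whereas 0 of 9 values of Zfp955a and 0 of 9 of Zfp955b were whole. The sum of the Zfp955 pair was whole in 0 of 9 libraries too, so summing the pair did not give whole reads back. Where the remaining fractions came from was not tested. The read length is not given in the sources used here.

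**Figure D1:**
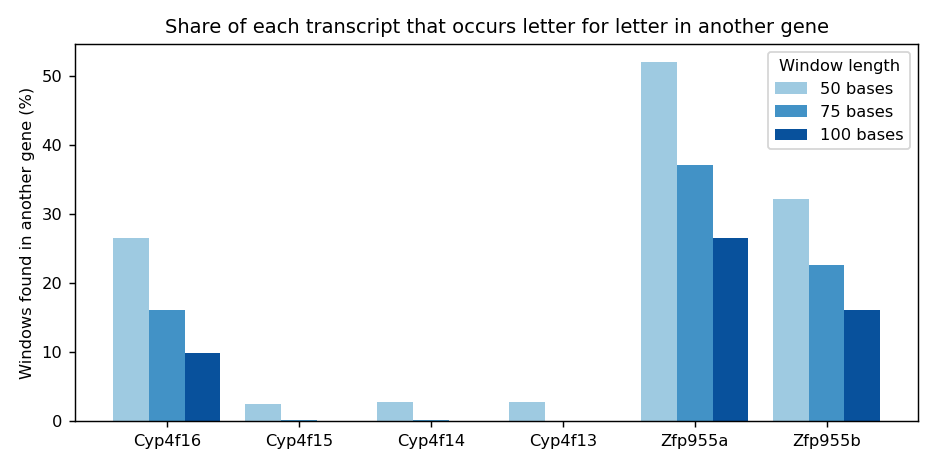
Share of windows of the longest transcript (y axis, %) that occur letter for letter in another gene's transcript, for windows of 50, 75 and 100 bases. Zfp955a and Zfp955b had the largest shares at each length, Cyp4f16 followed, and Cyp4f13, Cyp4f14 and Cyp4f15 were below 3% at 50 bases.

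The sequence before the first listed start site of each member was read from RefSeq (GRCm38.p6), from 250 to 51 bases upstream, outside the annotated gene. Cyp4f14 had 4 listed starts and each other member 1, so the further starts of Cyp4f14 were not examined. It is shown because Cyp4f14 and Cyp4f16 differed in level between the groups where Cyp4f13 and Cyp4f15 overlapped, and because the Zfp955 genes share theirs. The capitals mark CCAAT on either strand (ATTGG on the strand printed). The windows are Cyp4f14 at chr17:32917407-32917606, Cyp4f16 at chr17:32536307-32536506, Cyp4f13 at chr17:32947412-32947611, Cyp4f15 at chr17:32685409-32685608, Zfp955a at chr17:33255196-33255395 and Zfp955b at chr17:33289294-33289493, each on the strand of its gene.
Cyp4f14: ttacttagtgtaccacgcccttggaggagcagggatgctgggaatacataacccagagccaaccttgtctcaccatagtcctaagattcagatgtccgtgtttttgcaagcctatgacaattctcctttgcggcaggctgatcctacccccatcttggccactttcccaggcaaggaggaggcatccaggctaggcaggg
Cyp4f16: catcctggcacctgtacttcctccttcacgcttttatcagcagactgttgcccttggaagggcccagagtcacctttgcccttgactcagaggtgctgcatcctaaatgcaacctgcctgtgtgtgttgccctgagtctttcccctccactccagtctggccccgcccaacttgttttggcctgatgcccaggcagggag
Cyp4f13: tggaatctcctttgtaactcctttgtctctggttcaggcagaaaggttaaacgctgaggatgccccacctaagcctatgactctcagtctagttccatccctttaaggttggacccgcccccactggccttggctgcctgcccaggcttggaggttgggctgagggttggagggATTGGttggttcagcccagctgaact
Cyp4f15: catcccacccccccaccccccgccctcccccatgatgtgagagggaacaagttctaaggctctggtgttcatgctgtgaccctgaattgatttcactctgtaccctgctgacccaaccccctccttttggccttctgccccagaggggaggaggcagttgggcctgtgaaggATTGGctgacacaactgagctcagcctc
Zfp955a and Zfp955b: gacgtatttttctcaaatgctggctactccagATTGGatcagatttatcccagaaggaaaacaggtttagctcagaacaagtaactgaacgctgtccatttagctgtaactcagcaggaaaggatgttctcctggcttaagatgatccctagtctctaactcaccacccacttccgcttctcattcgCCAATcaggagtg

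The windows of Zfp955a and Zfp955b were identical over all 200 bases, and so were the full 300 bases of the table's promoters. CCAAT was present in Cyp4f13, Cyp4f15, Zfp955a and Zfp955b and in 28.9% of 27025 mouse promoter windows of the same length. TATAAA, found in 9.48% of those windows, and AGGTCA, found in 11.2%, were in 0 of the 6 members. The GC content of the windows was 53% to 59% for the Cyp4f genes and 45% for the Zfp955 genes, beside a median of 51.5% over all promoters. These matches describe letters only.

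Cyp4f14 and Cyp4f16 were higher in each KO library than in each WT library, whereas Cyp4f13 and Cyp4f15 overlapped between the groups. Cyp4f14, one of the mouse enzymes that hydroxylate leukotriene B4, had 6.44, 7.38, 6.78, 9.07 and 11.2 CPM in KO replicates 2, 4, 6, 8 and 10. In WT replicates 1, 3, 9 and 11 it had 4.25, 3.21, 3 and 2.89 CPM. The lowest KO library was thus above the highest WT library, and replicate 10 was the highest of all. These values rested on 37 to 226 reads per KO library and 21 to 47 reads per WT library. The exact Poisson interval, at the level used for Cyp4f16 below, was 4.78 to 8.49 CPM for KO replicate 2. That of WT replicate 1 was 3.12 to 5.65 CPM, so for counting error alone the intervals of the closest libraries overlapped. The means were 8.17 ± 1.96 (SD, n = 5) and 3.34 ± 0.622 CPM (SD, n = 4), a ratio of 2.45. Without replicate 10 the KO mean was 7.42 ± 1.17 CPM (SD, n = 4) and the ratio 2.22. The fitted difference of log2(CPM + 0.1), KO minus WT, was 1.25 (SE 0.19), and 1.13 (SE 0.18) without replicate 10.

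Cyp4f16, a fatty acid hydroxylase and the first of the members along the chromosome, had 3.22, 3.16, 5.13, 3.44 and 4.65 CPM in the KO libraries, in the order above, and 1.18, 1.35, 1.5 and 1.79 CPM in the WT libraries. The groups did not overlap, and here replicate 6 rather than replicate 10 was the highest. The means were 3.92 ± 0.906 CPM in the KO mice (SD, n = 5) against 1.45 ± 0.261 CPM in the WT mice (SD, n = 4), a ratio of 2.70, and the ratio was 2.57 without replicate 10. The log2 difference was 1.36 (SE 0.22), and 1.29 (SE 0.25) without replicate 10. These values rested on 22 to 94 reads per KO library and 13 to 15 reads per WT library. The exact 95% Poisson interval of KO replicate 4 was 2.03 to 4.71 CPM and that of WT replicate 11 was 0.953 to 3.06 CPM, so the intervals of the closest libraries overlapped. They cover counting error only.

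Cyp4f13 and Cyp4f15 lie on either side of Cyp4f14 in the cluster and are fatty acid hydroxylases of the same family. Cyp4f13 had 9.53, 9.23, 9.16, 8.13 and 6.43 CPM in the KO libraries and 8.32, 6.84, 8.10 and 10.3 CPM in the WT libraries. The highest library was WT replicate 11 and the lowest KO replicate 10, so the groups overlapped. The means were 8.49 ± 1.27 CPM (SD, n = 5) and 8.4 ± 1.44 CPM (SD, n = 4), with a log2 difference of 0.018 (SE 0.16) that ranged from -0.074 to 0.12 as each library was left out. Cyp4f15 had 5.67, 4.61, 4.76, 7.35 and 6.08 CPM in the KO libraries and 5.70, 5.08, 4.40 and 5.10 CPM in the WT libraries. Apart from KO replicates 8 and 10, its KO libraries lay within the WT range. The log2 difference was 0.15 (SE 0.17), and 0.12 (SE 0.18) without replicate 10.

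**Figure D2:**
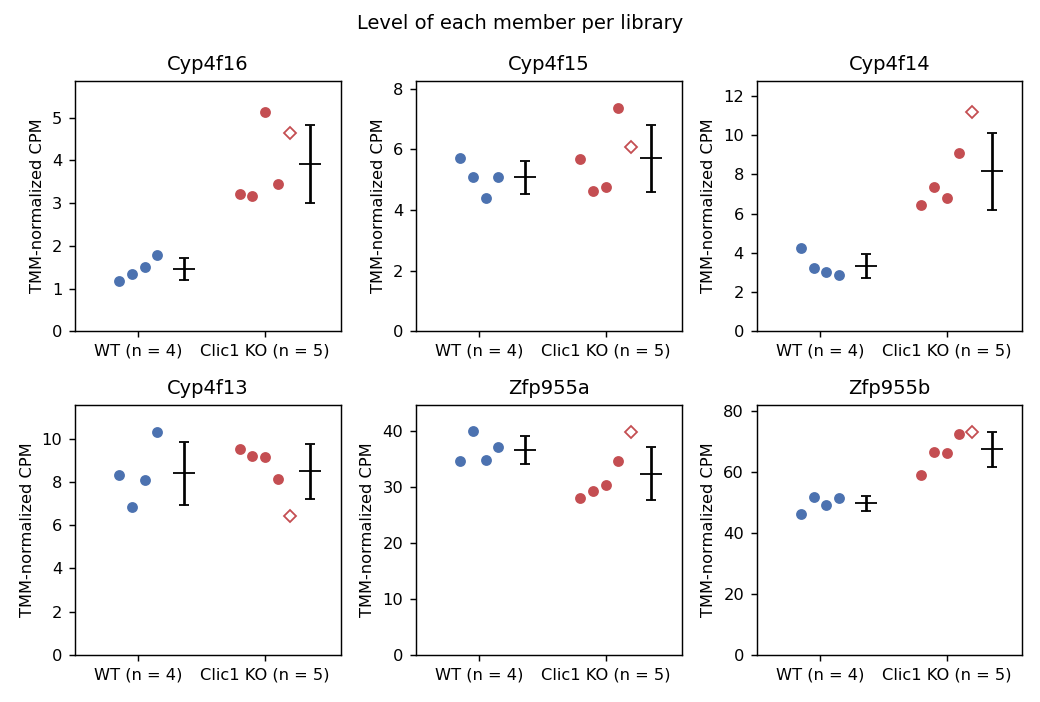
TMM-normalized CPM (y axis, linear from 0) of each member in the 4 WT and 5 Clic1 KO libraries, with 1 point per library and the mean with its SD beside the points. The open diamond is replicate 10, whose labels conflict. Cyp4f16, Cyp4f14 and Zfp955b separate the groups, and Cyp4f15, Cyp4f13 and Zfp955a overlap.

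Of the zinc-finger pair, Zfp955b had a higher mean in the KO than in the WT mice and Zfp955a a lower one. Zfp955b had 58.9, 66.7, 66.4, 72.5 and 73.2 CPM in the KO libraries and 46.4, 51.7, 49.2 and 51.6 CPM in the WT libraries, and the groups did not overlap. The means were 67.6 ± 5.76 CPM (SD, n = 5) and 49.7 ± 2.53 CPM (SD, n = 4), a ratio of 1.36 and of 1.33 without replicate 10. The log2 difference was 0.44 (SE 0.079), and 0.41 (SE 0.070) without replicate 10. Zfp955a had 28, 29.2, 30.2, 34.6 and 39.7 CPM in the KO libraries and 34.6, 39.9, 34.8 and 37.1 CPM in the WT libraries. Replicate 10 lay inside the WT range, and the next KO library, replicate 8, was level with the lowest WT library. Without it, the KO mean was 30.5 ± 2.84 CPM (SD, n = 4) beside a WT mean of 36.6 ± 2.48 CPM (SD, n = 4), and the log2 difference was -0.26 (SE 0.082) rather than -0.19 (SE 0.11) with all libraries.

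Of the 6 members, 3 were past an adjusted p of 0.05 in the KO against WT fit and 3 had groups that did not overlap, all higher in KO: Cyp4f14, Cyp4f16 and Zfp955b. Over the table, 0.286% of 14351 genes were past that threshold (0.139% higher and 0.146% lower), and 3.41% did not overlap (1.67% higher and 1.74% lower). Because this contrast chose the members, nothing is read from their count. It fell to 0 with replicate 10 grouped as WT, to 0 without KO replicate 8, WT replicate 3, WT replicate 9 or WT replicate 11, to 1 without KO replicate 6 or WT replicate 1 and to 2 without KO replicate 4. It stayed at 3 without KO replicate 2 or KO replicate 10.

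Summed per library, the 4 Cyp4f genes had 24.9, 24.4, 25.8, 28 and 28.3 CPM in KO and 19.4, 16.5, 17 and 20.1 CPM in WT libraries. The sums did not overlap, with means of 26.3 ± 1.80 CPM (SD, n = 5) and 18.3 ± 1.79 CPM (SD, n = 4), a ratio of 1.44. Split by whether a member's own groups overlapped, a choice that fixes the direction, the parts of the sum were as follows. Cyp4f14 and Cyp4f16 together had 9.66 to 15.8 CPM in the KO mice against 4.50 to 5.43 CPM in the WT mice, a ratio of 2.52, whereas Cyp4f13 and Cyp4f15 together had means of 14.2 ± 1.19 CPM (SD, n = 5) and 13.5 ± 1.58 CPM (SD, n = 4), a ratio of 1.05. The log2 difference of the sum of all 4 was 0.53 (SE 0.079), 0.50 without replicate 10 and 0.37 with replicate 10 grouped as WT. In this bulk tissue, a change in the number of cells that carry an RNA cannot be told apart from a change in the RNA per cell. The members also lie on the chromosome of the targeted gene, with Zfp955b 1.74 Mb from Clic1. Any part of this position in their differences was not tested.

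The Zfp955 sum was 87, 95.9, 96.7, 107 and 112.9 CPM in KO and 81, 91.6, 84 and 88.7 CPM in WT libraries. KO replicate 2 lay below WT replicates 3 and 11, so the groups overlapped. The means were 99.9 ± 10.2 CPM (SD, n = 5) and 86.3 ± 4.76 CPM (SD, n = 4), a ratio of 1.16, and the log2 difference of 0.21 (SE 0.082) was smaller than that of Zfp955b alone. The split of the pair separated the groups, as the level of Zfp955b itself did. Zfp955b was selected with its higher level in KO known, a choice that bears on the direction of its share. Zfp955b made up 67.8%, 69.6%, 68.7%, 67.7% and 64.8% of the sum in the KO libraries and 57.3%, 56.4%, 58.6% and 58.2% in the WT libraries. The spread of this share within a group was small, at 67.7% ± 1.78 (SD, n = 5) and 57.6% ± 0.963 (SD, n = 4), and without replicate 10 the KO share was 68.4% ± 0.876 (SD, n = 4). How far the division of reads between the copies enters this share was not tested.

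Within the Cyp4f sum, the mean share of Cyp4f14 was 30.9% ± 5.53 in the KO mice (SD, n = 5) against 18.3% ± 3.16 in the WT mice (SD, n = 4), and that of Cyp4f16 was 14.9% ± 3.21 and 7.99% ± 1.33. Neither gene's shares overlapped between the groups. Cyp4f13 took 32.7% ± 6.70 of the KO sum and 45.8% ± 4.54 of the WT sum, also without overlap, although its level did overlap. Shares of a sum move together by construction, so a lower share of Cyp4f13 is no lower level.

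**Figure D3:**
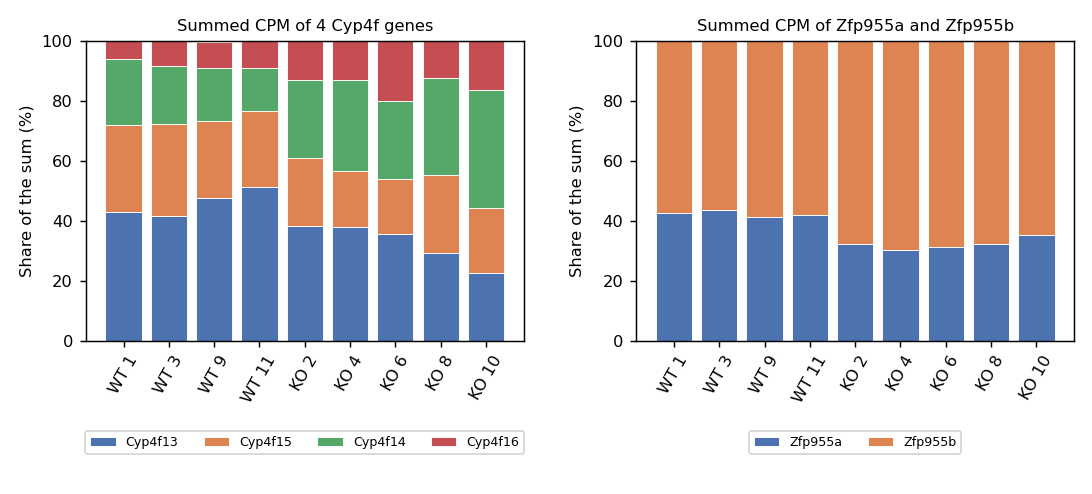
Share (y axis, %) of each gene in the summed CPM of the 4 Cyp4f genes (left) and of Zfp955a with Zfp955b (right), 1 bar per library. Zfp955b takes 64.8% to 69.6% of its pair in the KO libraries and 56.4% to 58.6% in the WT libraries.

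Levels of different genes were compared as CPM per kilobase of the longest annotated transcript. In the WT libraries, Zfp955a was highest at 10.3 ± 0.70 CPM per kb (SD, n = 4), followed by Zfp955b at 8.59 ± 0.437, Cyp4f13 at 4.79 ± 0.825, Cyp4f15 at 2.34 ± 0.245, Cyp4f14 at 1.5 ± 0.28 and Cyp4f16 at 0.648 ± 0.116. The ranges of neighbours in this WT order did not overlap. In the KO libraries, Zfp955b was highest at 11.7 ± 0.995 CPM per kb (SD, n = 5), ahead of Zfp955a at 9.13 ± 1.35, and Cyp4f14 at 3.68 ± 0.884 stood above Cyp4f15 at 2.63 ± 0.512. Every pair of neighbours in the KO order overlapped except Zfp955a and Cyp4f13. The WT order of the Zfp955 pair rests on length. Zfp955b had more CPM than Zfp955a in every library, but its longest transcript has 5788 nt against 3544 nt. The union of annotated exons has the same lengths for this pair, so it gives no second check. Cyp4f13 also depended on the length used, since its exons cover 4441 nt in all and its longest transcript 1752 nt. With the union of annotated exons as the length, the WT means were 2.22 CPM per kb for Cyp4f15, 1.89 for Cyp4f13 and 1.38 for Cyp4f14, and the KO means were 2.5, 1.91 and 3.38. By the mean over all 9 libraries, KO and WT pooled, Cyp4f13 then moved from rank 3 to rank 5 of the 6 members.

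**Figure D4:**
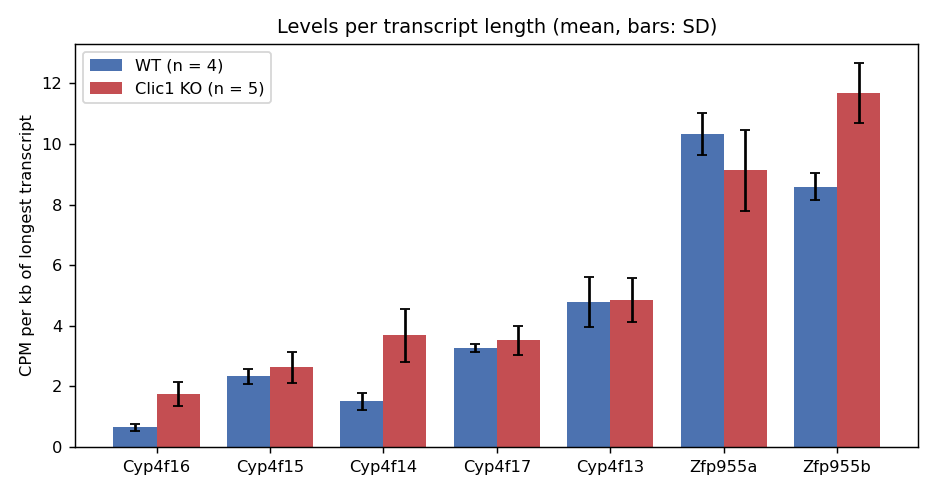
Mean CPM per kb of the longest transcript (y axis) in WT (n = 4) and Clic1 KO (n = 5) libraries, with SD bars, for the 6 members and their neighbour Cyp4f17. The Zfp955 genes stand above the Cyp4f genes in each group, and Cyp4f16 is the lowest.

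Among libraries of the same group, the spread of the members differed. The coefficient of variation in KO and WT libraries was 8.53% and 5.08% for Zfp955b, 14.8% and 6.77% for Zfp955a, 24.0% and 18.6% for Cyp4f14 and 23.1% and 18% for Cyp4f16. After each group's mean was taken away, Zfp955a and Zfp955b had a Pearson r of 0.85 over 9 libraries and 0.86 over the 8 without replicate 10. Any part of the division of reads in this r was not tested. Cyp4f14 and Cyp4f16, the Cyp4f genes that separated the groups, had an r of -0.073, and -0.52 without replicate 10. Cyp4f14 and Cyp4f15 had an r of 0.62, and 0.67 without replicate 10. The r of Cyp4f13 was -0.69 with Cyp4f14 and -0.77 with Zfp955a, and -0.40 and -0.51 without replicate 10. With so few libraries these values are a description.

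The genes around the members were tested in the same limma fit, on all 14351 genes with Benjamini-Hochberg adjustment. Within 1 Mb on either side of the members, a window chosen with earlier results of these data known, 61 other genes had a row. Of these, 3 were higher in KO and 0 lower past the threshold, that is 4.92% beside 0.286% of all genes. Rps18, which encodes a protein of the small ribosomal subunit, had 45.6 ± 9.88 CPM in the KO mice (SD, n = 5) against 11 ± 3.36 CPM in the WT mice (SD, n = 4), with a limma log2 difference of 2.06 (SE 0.19, adjusted p = 0.000353). H2-K1, a class I antigen-presenting molecule, had 26.8 ± 5.59 and 7.33 ± 3.67 CPM, with a log2 difference of 1.95 (SE 0.27, adjusted p = 0.00886 from limma), and was no longer past the threshold without WT replicate 3 (adjusted p = 0.0547). Rgl2, an exchange factor for Ral GTPases, had 28.4 ± 4.24 and 14.8 ± 1.76 CPM, with a log2 difference of 0.93 (SE 0.12, adjusted p = 0.00682 from limma). These genes start 1393 to 1459 kb after the start of Cyp4f16, beyond Zfp955b. Rps18 has near-identical copies elsewhere in the genome and H2-K1 belongs to a family of similar genes, so their values are uncertain where the counting divided reads. Within 0.5 Mb, 29 genes had a row and 0 were past the threshold in limma. Of these 29 genes, 11 had an unadjusted p under 0.05 in limma, beside 933 of the 14351 genes of the table.

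The 12 genes with a row between Cyp4f16 and Zfp955b, members aside, had log2 differences of -0.21 to 0.68 with a median of 0.23, and 9 of the 12 were above 0. Over all genes the median log2 difference was 0.00089. In limma 0 of the 12 were past the threshold, and 6 had an unadjusted p under 0.05, beside 933 of the 14351 genes of the table. Zfp952, a zinc-finger gene beyond Cyp4f13, was the gene among them whose groups did not overlap, at 20.9 ± 1.89 CPM (SD, n = 5) and 15.4 ± 2.02 CPM (SD, n = 4), with a log2 difference of 0.44 (SE 0.11, adjusted p = 0.318 from limma). It was chosen after its values were seen. The 8 zinc-finger genes of this interval had a median log2 difference of 0.19. Without replicate 10, 5 of the 61 genes within 1 Mb were past the threshold, and the further genes were Zfp871 (log2 difference 0.39, adjusted p = 0.00602 from limma) and Adamts10 (0.53, adjusted p = 0.00545). With replicate 10 grouped as WT, 0 were.

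**Figure D5:**
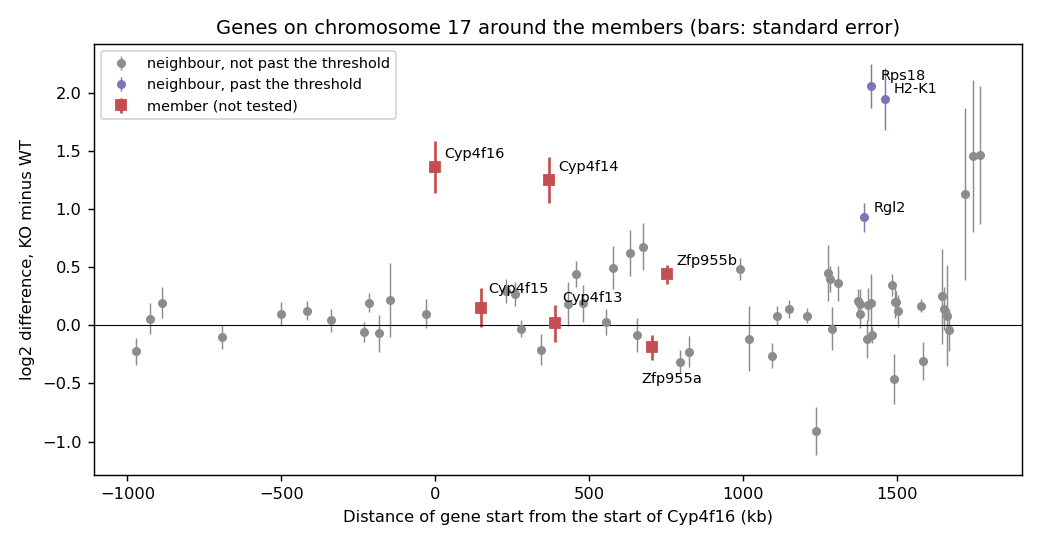
Log2 difference of KO minus WT with its standard error (y axis) against the distance of each gene's start from the start of Cyp4f16 (x axis, kb), for the 6 members (squares) and the 61 genes within 1 Mb of them (circles). Cyp4f16 and Cyp4f14 lie above their immediate neighbours, and Rgl2, Rps18 and H2-K1 at 1393 to 1459 kb are the neighbours past the threshold.

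Cyp4f17 is the nearest Cyp4f relative with a row, 6.41 kb before Cyp4f16. It had 10.3 ± 1.40 CPM in the KO mice (SD, n = 5) against 9.60 ± 0.435 CPM in the WT mice (SD, n = 4), with a log2 difference of 0.098 (SE 0.12, adjusted p = 0.904 from limma), and the groups overlapped. Of 14 other genes of the Cyp4 family, 3 had a row, Cyp4f17, Cyp4v3 and Cyp4x1, and 0 of the 3 were past the threshold or at an unadjusted p under 0.05 in limma, with a median log2 difference of 0.064.

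No gene of the lists around the CYP4F enzymes and the zinc-finger proteins passed the test. Of 29 genes of eicosanoid and leukotriene metabolism, 23 had a row and 0 were past the threshold in limma, with a median log2 difference of 0.00050. The gene of this list at an unadjusted p under 0.05 was Cyp2j9, a cytochrome P450 gene, at 64.8 ± 7.19 CPM in the KO mice (SD, n = 5) against 77.4 ± 8.19 CPM in the WT mice (SD, n = 4), with a log2 difference of -0.26 (SE 0.10, adjusted p = 0.688 from limma). Ptgds, which makes prostaglandin D2, varied from 61.9 to 933 CPM between libraries, with means of 429 ± 348 CPM (SD, n = 5) and 185 ± 215 CPM (SD, n = 4) and an adjusted p of 0.825 from limma. Ptges3, a prostaglandin E synthase and cochaperone, had 153 ± 9.89 and 151 ± 7.73 CPM. Of the 13 genes of P450 partners, fatty aldehyde and vitamin K metabolism, 13 had a row and 0 were past the threshold, 0 of them at an unadjusted p under 0.05, and their median log2 difference was -0.034. Por, the reductase that serves all microsomal P450 enzymes, had 114 ± 14.6 CPM in the KO mice (SD, n = 5) against 107 ± 4.96 CPM in the WT mice (SD, n = 4). Cyb5b, a cytochrome b5, had 166 ± 12.7 and 170 ± 6.42 CPM.

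The corepressors and heterochromatin proteins that KRAB zinc-finger proteins work with had 20 of 20 genes with a row. In limma 0 of the 20 were past the threshold and 0 had an unadjusted p under 0.05, with a median log2 difference of 0.058. Among the highest of them, Cbx5, which binds methylated histone H3, had 501 ± 38.8 CPM in the KO mice (SD, n = 5) against 540 ± 11.8 CPM in the WT mice (SD, n = 4), and Chd3, a chromatin remodeller, had 558 ± 27.8 and 512 ± 48.9 CPM. Atrx, a remodeller of heterochromatin, had 307 ± 7.83 and 308 ± 18.5 CPM. Over these 4 lists the smallest adjusted p was 0.688 from limma.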

How the data were processed

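Hypothalamic RNA from 5 KO and 4 WT animals was sequenced. The authors checked reads with FastQC 0.11.8, trimmed them with Trimmomatic 0.38, aligned them to GRCm38.p6 with STAR 2.5.1a, estimated gene counts with RSEM 1.3.0 and Ensembl release 98 and dropped genes that did not reach 1 CPM in at least 5 samples. The deposited values are a signal that the authors scaled by TMM in edgeR, in normalized CPM. RSEM shares out reads with several matches, so values of near-identical copies depend on that division. The authors' comparison columns (fold changes and p-values) were not used. A further 1 column of library values corresponded to no listed sample and was left out. Its name carried the prefix of the WT libraries, so the WT ranges given here rest on the 4 listed WT libraries only.

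Values were transformed to log2(CPM + 0.1), a scale that understates the change of low genes, then compared by genotype alone in limma 3.58.1 (R 4.3.3) with trended eBayes. Adjusted p-values are Benjamini-Hochberg over all 14351 genes, and the threshold was 0.05. The study fitted limma-voom to counts. The fit was tested on simulated data. In each library, 80.9% to 86.3% of values no higher than 2.5 CPM were whole reads within 0.03 reads, so totals and reads are estimates. Positions and transcripts came from GENCODE mouse release 21 on GRCm38, and promoters from RefSeq. Alternatives were other pseudocounts, scalings, variance models, a filter on low values, other windows, replicate 10 as WT and leaving out each library.

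The members, neighbour window and gene lists were chosen with earlier results of these data known. The genes named were the members, Clic1, neighbours past the threshold, the genes of each list past the threshold or among its highest, and the genes most alike to each sum within groups. Some genes that this rule names are not reported here. Others are named as chosen later.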

Additional observations from a re-analysis of the deposited data

Results flagged for a closer look

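Rps18 in KO replicate 10 stood apart from its group, at 63.0 CPM where the other KO libraries had 38.6 to 43.3 CPM. The gap to the nearest library was 0.81 of the group's range. In all 30 groups of values were examined in this way, of which chance marks about 1 in 20.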

How the results depend on the processing

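No paired analysis was made. The groups share no replicate number, which need not mark pairs, and the litters of the mice are not given in the sources used here. Replicate 10 grouped as WT lowered the genes past the threshold over the table from 41 to 5 and the neighbours from 3 to 0. It lowered the log2 difference of the Cyp4f sum to 0.37, of the Zfp955 sum to 0.083, of Cyp4f14 to 0.79, of Cyp4f16 to 0.97 and of Zfp955b to 0.30. As each library was left out, the count over the table ranged from 18 (without WT replicate 1) to 87 (without KO replicate 10), and that of neighbours from 2 (without WT replicate 3) to 5 (without KO replicate 10). A filter at a mean of at least 5 CPM, which tested fewer genes and left out Cyp4f16, gave 27 genes. It called 1 of the 5 members tested, and a fit with no trend called 2 of 6. Sample weights gave 135 genes and 7 neighbours. Windows of 0.5 and 2 Mb gave 0 of 29 and 7 of 111 neighbours. Those of the 2 Mb window were 4 higher and 3 lower in KO, 6.31% beside 0.286% of all genes. They include Clic1, the targeted gene itself. A pseudocount of 1 gave 0.99 for Cyp4f16. With the union of exons as length and the mean over KO and WT libraries pooled, Cyp4f13 ranked 5, Cyp4f14 ranked 3 and Cyp4f15 ranked 4. The cause of these changes was not tested. Of the other 205 values, counts stayed within 1.5 times and log2 differences within the spread between replicates. The rank of Cyp4f16 held, and so did those of the Zfp955 genes, whose lengths were the same in each setting. None of the members past the threshold changed sign. Their groups did not overlap and their higher level in KO was known when they were selected, so nothing is read from this. Cyp4f16, with 13 to 15 reads per WT library, was the least precise member.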

Other observations

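Among 12067 other genes whose mean reached 5 CPM, those whose variation within groups was most like that of the Cyp4f sum included D430042O09Rik on chromosome 7 (Pearson r = 0.95 over 9 libraries, 0.94 without replicate 10) and Nxph3 on chromosome 11 (0.94 and 0.93). For the Zfp955 sum they were Trmt5 on chromosome 12 (0.97 and 0.96), Wdr44 on chromosome X (0.97 and 0.96) and Atm on chromosome 9 (0.95 and 0.93). They are the highest of many values over few libraries that also differ in depth, and are given as a description.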
